A study of Mus musculus with 2 samples.

Results

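Gluconeogenesis and the hepatic response to insulin were followed through 10 genes: Pcx, Pck1, Fbp1, Pygl, Foxo1, Ppargc1a, Igfbp1, Insr, Irs1 and Irs2. The members were taken as probe sets whose platform annotation names 1 of these genes alone, which gave 23 probe sets among 12393 genes on the arrays. The data are 2 Affymetrix arrays of liver RNA, 1 for each of the diets MAOO and OO. Every mouse of the study was female, 2 months old, on a C57BL/6J background and homozygous for the apoE knockout. The MAOO diet was chow holding 10% (w/w) of a maslinic acid-enriched olive oil (maslinic acid is a triterpene of olives), and the OO diet was the same chow holding 10% (w/w) plain olive oil, each for 4 weeks. The design names 12 mice, 6 on each diet, and the sources used here do not say whether an array carries RNA of 1 mouse or of a pool. The question of the comparison is how maslinic acid in the oil bears on hepatic gene expression. With 1 array per diet there is no replicate, so no difference below has a test or an error between animals, and precision is limited by the number of arrays.

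The liver keeps blood glucose up between meals by releasing glucose from glycogen and by making it from lactate, glycerol and amino acids. Pyruvate carboxylase, phosphoenolpyruvate carboxykinase, fructose-1,6-bisphosphatase and glucose-6-phosphatase catalyse the steps that glycolysis cannot run backwards. After a meal insulin binds its receptor, the receptor phosphorylates the adaptors Irs1 and Irs2, and the kinase Akt then drives the transcription factor Foxo1 out of the nucleus, which lowers transcription of Pck1, G6pc, Igfbp1 and Irs2. In fasting, glucagon acts through cAMP and CREB and raises Ppargc1a, a coactivator of Foxo1.

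A label check comes before the results. Apoe, the gene knocked out in both groups, read 7630 on the array labelled MAOO and 407.7 on the array labelled OO, so the level on the array labelled MAOO goes against the label, and directions are given between arrays as labelled. Whether the arrays differ in more than the diet was not tested, so differences below are between arrays and are not assigned to the diet. Neither array can be left out. Hepatocyte markers were bright: 9 of 9 on the arrays were measured, with a summed signal of 57143 on the array labelled MAOO and 63984 on the array labelled OO. All 4 cholangiocyte markers on the arrays lay under the floor, the value of 40.0 on the deposited signal scale below which signals were set to the floor. In bulk liver, fewer cells of a type and less RNA per cell cannot be told apart.

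Igfbp1 was the member that differed most between the arrays. Of the gluconeogenic enzyme genes, Pcx and Pck1 were nearly level, while Fbp1 and G6pc, which is not a member, were lower on the array labelled MAOO. A gene counted as measured where its brightest probe set reached a deposited signal of 80.0 on either array, which 8 of the 10 members and 5911 genes did. Of the 8 measured members, Igfbp1 alone was lower by 1.5-fold or more on the array labelled MAOO, as were 1.57% of all measured genes. In the other direction 0 members passed that fold, against 1.47% of measured genes. None was 2-fold apart, against 0.305% of measured genes in each direction. The median log2 ratio, MAOO over OO, was -0.14 over the 8 members and -0.0098 over the 5911 genes. Of the members, 3 were higher and 5 lower, against 2837 higher and 3074 lower of the 5911 genes. The 7 other than Igfbp1 lay between -0.28 and 0.035. The value of -0.28 is that of Ppargc1a, whose measured probe sets did not share a direction.

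**Figure D1:**
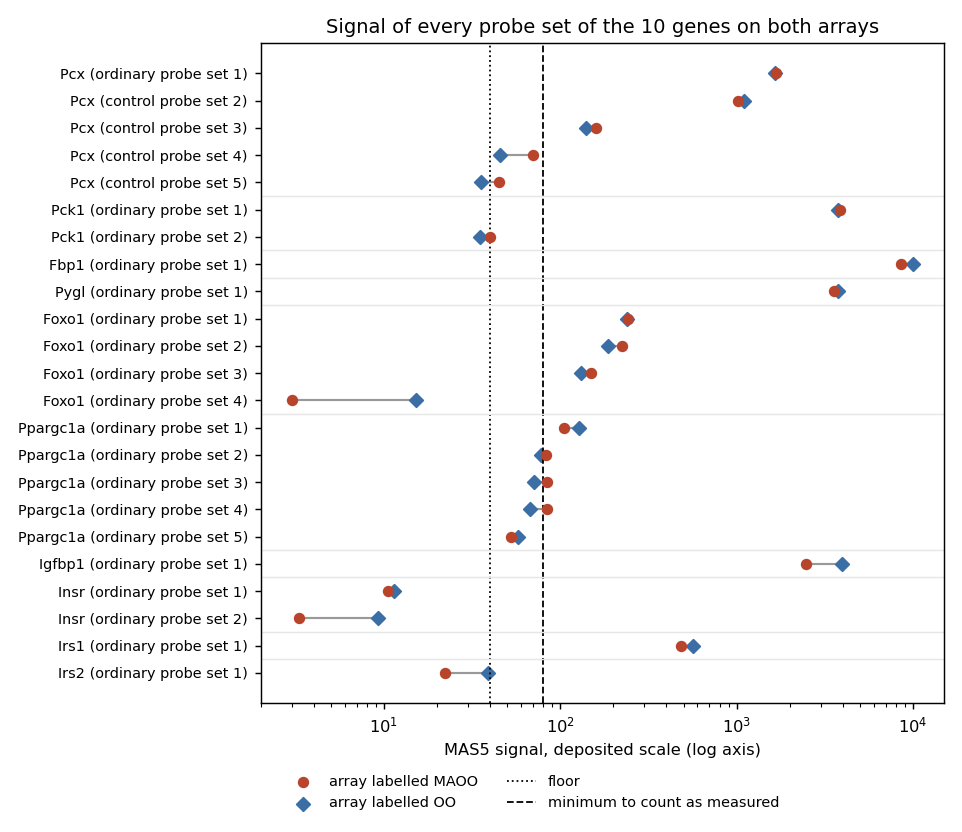
MAS5 signal on a log axis of each of the 23 probe sets of the 10 genes, with circles for the array labelled MAOO and diamonds for the array labelled OO. Probe sets are numbered by falling signal within a gene; the dotted line is the floor of 40.0 and the dashed line the minimum of 80.0. Igfbp1 has the widest gap among probe sets right of the dashed line, and both Insr probe sets and the Irs2 probe set lie left of the dotted line.

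Igfbp1 encodes a liver-secreted protein that binds insulin-like growth factors and whose transcription insulin represses. Its single probe set read 2461 on the array labelled MAOO and 3953 on the array labelled OO. The signal was 1.61-fold lower on the array labelled MAOO, a log2 ratio of -0.68. Both signals are far above the floor, where ratios vary less than among dim genes. Of the 973 measured genes with a mean signal of 1000 or more, a limit chosen after the values were seen, 0.411% were at least 1.5-fold lower and 0.719% at least 1.5-fold higher. Igfbp1 had the second lowest ratio of the 973. The lowest was that of Igfbp2, another binding protein of insulin-like growth factors made by the liver, at 1692 on the array labelled MAOO and 2858 on the array labelled OO, a log2 ratio of -0.76. Both genes are read by 1 measured probe set, so neither ratio has a repeat on these arrays. The members and lists were chosen with earlier results of these data known. The ranks therefore describe the genes and do not measure how unusual they are. Between measured probe sets of 1 gene in this signal range, the SD of the log2 ratio was 0.15 over 230 genes. This spread is taken around each gene's own mean on the same 2 arrays. It covers neither differences between arrays that a gene's probe sets share nor differences between mice. It is therefore no test of the ratio of Igfbp1 or Igfbp2. The median log2 ratio of the 973 genes was -0.035.

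The lower signal of Igfbp1 went further than that of the hepatocyte markers. Of the 9 markers, 7 were lower on the array labelled MAOO, with a median log2 ratio of -0.18 and a range from -0.23 to 0.45, all above the -0.68 of Igfbp1. The 4 measured lymphocyte markers were all higher on that array, led by the immunoglobulin gene Ighm at a log2 ratio of 1.54 (0.49 to 1.54 over its 3 measured probe sets), with a summed signal over the 8 markers on the arrays of 3054 against 1917 on the array labelled OO, and the part of these markers in the ratios of the members was not tested. Macrophage markers were higher for 6 of 11 measured genes with a median log2 ratio of 0.027, but the macrophage receptor gene Marco read 84.6 on the array labelled MAOO and 338.1 on the array labelled OO, a log2 ratio of -2.0 and the lowest of the 5911 measured genes. Endothelial markers were higher for 0 of 8 genes with a median of -0.10, and stellate cell markers for 6 of 8 with a median of 0.21. The adipocyte and exocrine pancreas lists had 1 measured marker each, at 0.43 and -0.54.

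Sequences before the gene starts of Igfbp1, Irs1 and Irs2 are shown because these members share a motif there. The letters CAAAACAA form the core of the insulin response sequence that FoxO factors bind in Igfbp1. They were searched on both strands, as CAAAACAA or TTGTTTTG, in the 250 bases before each start in the RefSeq promoter table (GRCm38.p6). They occurred in 3 of the 9 members with an entry and in 2.21% of all 32851 windows. The windows of Pck1 and of G6pc, also named above as genes that Foxo1 acts on, held no match. The motif runs from 108 to 101 bases before the start of Igfbp1, from 33 to 26 before that of Irs1 and from 38 to 31 before that of Irs2. Capitals mark it below, and each sequence reads 5′ to 3′ on the gene's own strand. Igfbp1 lies at chr11:7197537-7197786 on the plus strand, Irs1 at chr1:82291440-82291689 on the minus strand and Irs2 at chr8:11008930-11009179 on the minus strand.
Igfbp1: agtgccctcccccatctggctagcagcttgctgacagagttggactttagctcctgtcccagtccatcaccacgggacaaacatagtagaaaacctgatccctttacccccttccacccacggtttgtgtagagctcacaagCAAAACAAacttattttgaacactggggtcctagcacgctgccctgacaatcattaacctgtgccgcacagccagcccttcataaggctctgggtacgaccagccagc
Irs1: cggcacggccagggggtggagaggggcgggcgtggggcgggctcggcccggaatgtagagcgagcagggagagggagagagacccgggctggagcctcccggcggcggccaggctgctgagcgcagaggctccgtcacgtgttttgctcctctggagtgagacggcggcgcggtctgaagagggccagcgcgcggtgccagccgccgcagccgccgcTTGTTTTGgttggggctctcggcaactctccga
Irs2: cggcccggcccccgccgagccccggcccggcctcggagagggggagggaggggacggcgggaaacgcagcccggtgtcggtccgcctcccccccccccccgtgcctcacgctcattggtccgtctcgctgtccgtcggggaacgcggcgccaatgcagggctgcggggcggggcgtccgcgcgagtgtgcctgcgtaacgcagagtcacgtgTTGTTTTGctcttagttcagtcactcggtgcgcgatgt
Of the 3 genes, Igfbp1 had a log2 ratio of -0.68, Irs1 of -0.22, and Irs2 was under the floor. A match is a description of the sequence and not a shown binding site. Another FoxO motif, GTAAACA or TGTTTAC, was in 0 of the 9 members' windows and in 3.17% of all windows.

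**Figure D2:**
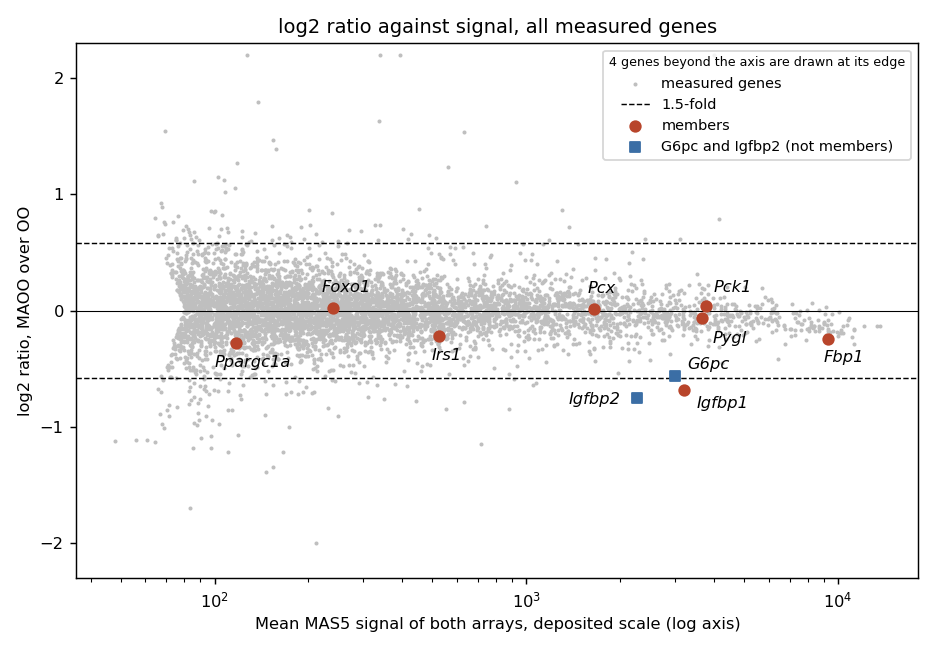
log2 ratio of MAOO over OO against the mean signal of both arrays on a log axis, for the 5911 measured genes (grey), the 8 measured members (circles) and G6pc and Igfbp2 (squares). Grey points beyond the vertical axis are drawn at its edge. The cloud narrows to the right, and Igfbp1, Igfbp2 and G6pc lie along its lower edge at signals above 1000 while Pck1, Pcx and Pygl lie near 0.

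Among the gluconeogenic enzymes, Pck1 and Pcx were close to equal on both arrays and Fbp1 was slightly lower on the array labelled MAOO. Pck1, the cytosolic phosphoenolpyruvate carboxykinase that turns oxaloacetate into phosphoenolpyruvate, read 3833 on the array labelled MAOO and 3742 on the array labelled OO, a log2 ratio of 0.035. Its other probe set read 39.8 and 35 on the arrays labelled MAOO and OO, under the floor on both, and gives no ratio. Fbp1, which removes a phosphate from fructose-1,6-bisphosphate, read 8495 on the array labelled MAOO and 10048 on the array labelled OO. Its log2 ratio of -0.24 lies just below the lowest hepatocyte marker, -0.23, and 58 of the 973 genes in its signal range were as low or lower. Pygl, the liver glycogen phosphorylase that releases glucose units from glycogen, read 3578 on the array labelled MAOO and 3741 on the array labelled OO, a log2 ratio of -0.064.

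Pcx encodes pyruvate carboxylase, the mitochondrial enzyme that makes oxaloacetate from pyruvate, and had 5 probe sets. The ordinary one read 1662 on the array labelled MAOO and 1647 on the array labelled OO, a log2 ratio of 0.013. The other 4 are control probe sets of the manufacturer, whose names place them along the transcript from its 5′ part through a pair in the middle to its 3′ part. The 3′ control set read 1020 on the array labelled MAOO and 1106 on the array labelled OO, with a log2 ratio of -0.12. The middle sets read 159.6 and 69.7 on the array labelled MAOO, against 140.8 and 45.8 on the array labelled OO. The 5′ set read 44.9 on the array labelled MAOO and 35.4, under the floor, on the array labelled OO. The dimmer middle set had a log2 ratio of 0.61, the farthest from 0 of the 5 Pcx sets, but it did not reach the minimum signal on either array. The 3 measured Pcx probe sets ranged in log2 ratio from -0.12 to 0.18 and so did not share a direction.

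Pck1 and Ppargc1a have in common the letters ACGTCA, part of the cAMP response element that CREB binds. Their windows are shown because both genes are glucagon targets and hold these letters. ACGTCA or its reverse TGACGT was in 2 of the 9 members with an entry and in 6.47% of all windows. It runs from 91 to 86 bases before the start of Pck1 and from 50 to 45 before that of Ppargc1a, in capitals below. Pck1 lies at chr2:173152823-173153072 on the plus strand and Ppargc1a at chr5:51567726-51567975 on the minus strand (GRCm38.p6).
Pck1: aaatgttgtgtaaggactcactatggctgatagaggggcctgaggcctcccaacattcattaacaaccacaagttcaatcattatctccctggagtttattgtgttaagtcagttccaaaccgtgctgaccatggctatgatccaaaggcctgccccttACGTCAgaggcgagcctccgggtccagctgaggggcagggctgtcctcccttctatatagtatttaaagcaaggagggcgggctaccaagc
Ppargc1a: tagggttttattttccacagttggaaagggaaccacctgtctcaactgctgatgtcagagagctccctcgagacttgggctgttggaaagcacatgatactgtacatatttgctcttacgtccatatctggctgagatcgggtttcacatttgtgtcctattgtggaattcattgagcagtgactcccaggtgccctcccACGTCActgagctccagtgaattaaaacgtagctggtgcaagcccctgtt
Neither gene was 1.5-fold apart with any measured probe set. The window of G6pc held no match to ACGTCA or TGACGT.

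The transcriptional regulators Ppargc1a and Foxo1 were dim, and their several probe sets show how far 1 gene's ratios can spread. Ppargc1a was read by 5 probe sets. The brightest read 105.5 on the array labelled MAOO and 128.4 on the array labelled OO, a log2 ratio of -0.28. The other 3 measured sets read 83.5, 84.1 and 83.7 on the array labelled MAOO, against 78.2, 71.4 and 67.8 on the array labelled OO, with log2 ratios of 0.095, 0.24 and 0.30. The brightest set and the other 3 thus ran in opposite directions, and the mean of the 4 log2 ratios was 0.088. The fifth set, at 52.9 on the array labelled MAOO and 57.9 on the array labelled OO, did not reach the minimum. Between measured probe sets of 1 gene at mean signals under 250, the SD of the log2 ratio was 0.27 over 664 genes, so no direction can be given for Ppargc1a.

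Foxo1, the transcription factor that insulin signalling inactivates, had 3 measured probe sets, all slightly higher on the array labelled MAOO. They read 241.5, 225.3 and 150.1 on that array, against 237.7, 187.4 and 131.9 on the array labelled OO. The log2 ratios were 0.023, 0.27 and 0.19, with a mean of 0.16. The SD of 0.27 between probe sets of dim genes is taken around each gene's own mean. It is therefore no test of whether Foxo1 differed between the arrays. The fourth set read 3.0 on the array labelled MAOO and 15.3 on the array labelled OO, under the floor on both. These are RNA levels and do not show where the Foxo1 protein was.

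At the top of the insulin signal, 1 of 3 members could be compared. Irs1, an adaptor that the insulin receptor phosphorylates, read 482.8 on the array labelled MAOO and 563.6 on the array labelled OO. Its log2 ratio was -0.22 on 1 probe set, and 197 of the 2008 genes with a mean signal of 250 to 1000 were as low or lower. Irs2, the other main adaptor in liver and a Foxo1 target, read 22.2 on the array labelled MAOO and 39.1 on the array labelled OO, under the floor on both. Insr, the insulin receptor, read 10.5 and 3.3 with its 2 probe sets on the array labelled MAOO, and 11.4 and 9.3 on the array labelled OO, also under the floor. For Irs2 and Insr no ratio was formed, and these low signals do not show that the RNAs were absent, since a probe set can read its gene poorly.

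The other genes of the pathway were taken as lists that hold no member, some of which share genes such as G6pc and Klf15. Of 15 other measured gluconeogenic genes, 6 were higher and 9 lower, with a median log2 ratio of -0.018 and 0 at least 1.5-fold apart. The lowest was G6pc, which encodes the glucose-6-phosphatase that frees glucose for export, at 2423 on the array labelled MAOO and 3576 on the array labelled OO. Its log2 ratio of -0.56 was the fifth lowest of the 973 genes with a mean signal of 1000 or more. This rank has the same limits as that of Igfbp1. Slc37a4, the transporter that feeds glucose 6-phosphate to that enzyme, had a log2 ratio of 0.18. The highest was Gpt2, the mitochondrial alanine aminotransferase, at 2572 on the array labelled MAOO and 1812 on the array labelled OO. Its log2 ratio was 0.51, and its 3 measured probe sets ranged from 0.34 to 0.51. Got1, the cytosolic aspartate aminotransferase, lay at -0.32, and Slc16a1, a lactate and pyruvate carrier, at -0.21.

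**Figure D3:**
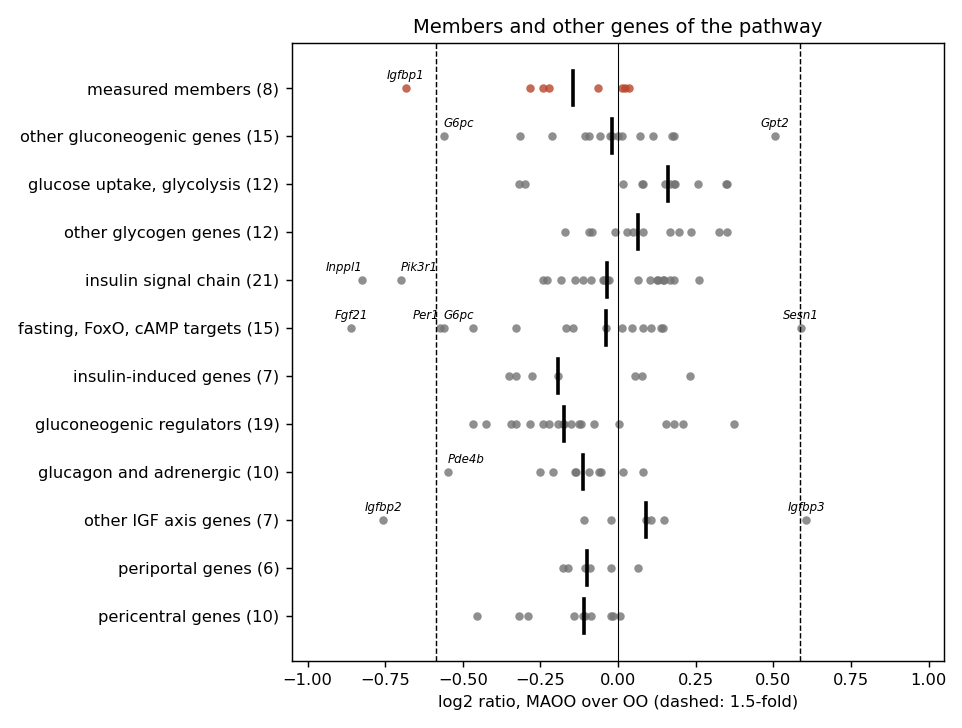
log2 ratio of MAOO over OO for the 8 measured members and for the measured genes of 11 lists, 1 point per gene, with the median of each row as a black bar and 1.5-fold as dashed lines. The number of genes is given in brackets, genes beyond 0.5 either way are named, and most rows spread to both sides of 0.

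In the lists for glucose uptake and glycolysis and for other glycogen genes, most genes were a little higher on the array labelled MAOO. For glucose uptake and glycolysis 10 of 12 measured genes were higher, with a median log2 ratio of 0.16. The pyruvate dehydrogenase kinase gene Pdk1 lay at 0.35, the glucose transporter gene Slc2a1 at 0.35, and Dlat and Pdhb, which encode subunits of the pyruvate dehydrogenase complex, at -0.32 and -0.30. The liver glucose transporter gene Slc2a2 lay at 0.014. The measured probe sets of Slc2a1, Dlat and Pdhb did not share a sign, nor did those of Ugp2 below. For other glycogen genes 8 of 12 were higher, with a median of 0.064, among them Phkg2, a catalytic subunit of phosphorylase kinase, at 0.35, Ppp1cb, a catalytic subunit of protein phosphatase 1, at 0.32, Stbd1 at 0.23 and Ugp2, which makes the glucose donor for glycogen, at 0.20. The liver glycogen synthase gene Gys2 lay at -0.17. None of these genes was 1.5-fold apart.

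In the insulin signal chain 9 of 21 measured genes were higher and 12 lower, with a median log2 ratio of -0.037. Of these, 2 were at least 1.5-fold lower and both were dim. Inppl1, which encodes the lipid phosphatase SHIP2, read 68.9 on the array labelled MAOO and 122.0 on the array labelled OO, a log2 ratio of -0.82. Pik3r1, the regulatory subunit of phosphatidylinositol 3-kinase, read 158.4 on the array labelled MAOO and 257.3 on the array labelled OO, a log2 ratio of -0.70. Among measured genes with a mean signal under 250, 2.59% were at least 1.5-fold lower and 2.12% at least 1.5-fold higher. Each has 1 measured probe set. Sh2b1, an adaptor of the receptor, lay at 0.26 and Tsc2, an inhibitor of mTOR signalling, at -0.24. Tsc2 was dim, at 71.3 on the array labelled MAOO and 84.4 on the array labelled OO, on 1 measured probe set. Akt1 and Akt2, the kinases below the receptor, lay at -0.049 and 0.15.

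Genes induced by fasting, FoxO or cAMP had a median log2 ratio of -0.040, with 7 of 15 higher and 8 lower, and 1 gene at least 1.5-fold apart in each direction. Fgf21, a hormone of the fasting liver, read 49.8 on the array labelled MAOO and 90.4 on the array labelled OO, a log2 ratio of -0.86 that shrank to -0.18 with a floor of 200 after scaling in place of 100. Sesn1, a sestrin, lay at 0.59 on its brightest probe set, but its 3 measured sets ranged from -0.36 to 0.59 with a mean of 0.12. Per1, a clock gene, lay at -0.57, while Pdk4, another fasting gene, lay at 0.046 and Tat, a glucocorticoid-induced aminotransferase, at -0.14. Genes that insulin induces had a median of -0.19, which was -0.10 with the loess trend on signal removed and -0.035 with quantile normalization. Of these, 4 of 7 were lower: Srebf1, a regulator of lipogenesis, lay at -0.35, Acly at -0.33 and Fasn at -0.28, against 0.23 for Thrsp.

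Regulators of gluconeogenic transcription were lower for 14 of 19 measured genes, with a median log2 ratio of -0.17 against -0.0098 over all measured genes, and 0 were 1.5-fold apart. Klf15, a fasting-induced factor that favours amino acid use, read 530.8 on the array labelled MAOO and 734.1 on the array labelled OO, a log2 ratio of -0.47. Foxa3 lay at -0.42 and the coactivator gene Crebbp at -0.35, against 0.37 for the deacetylase gene Sirt1. Crebbp was dim, at 68.3 on the array labelled MAOO and 86.8 on the array labelled OO, on 1 measured probe set. In the list for glucagon and adrenergic signalling 8 of 10 genes were lower, with a median of -0.11. The count and median include Igf2r, a receptor for an insulin-like growth factor that is not a gene of that signalling. Pde4b, a cAMP phosphodiesterase, was the lowest at -0.55, with its other measured set at -0.37. Igf2r lay at -0.25 with its 2 sets on either side of 0, Prkacb at -0.21 and Adcy6 at -0.14, and the glucagon receptor gene Gcgr at 0.016.

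Of 7 other measured genes of the IGF axis, 4 were higher and 3 lower, with a median log2 ratio of 0.090. Beside Igfbp2 at -0.76, Igfbp3 read 184.7 on the array labelled MAOO and 121.4 on the array labelled OO, a log2 ratio of 0.61, on 1 dim probe set. Igf1, the growth factor that these proteins bind, lay at 0.15 and Igfbp4 at -0.11, and their probe sets did not share a sign. The binding protein genes therefore did not run in 1 direction, with Igfbp1 and Igfbp2 lower and Igfbp3 higher.

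Gluconeogenesis takes place mainly in periportal hepatocytes, so genes of both liver zones were set beside the members. Of 6 measured periportal genes 5 were lower, with a median log2 ratio of -0.10, led by Cps1 at -0.18, Arg1 at -0.16, Pigr at -0.11 and Hal at -0.091. Of 10 measured pericentral genes 9 were lower, with a median of -0.11, led by Cyp1a2 at -0.45, Lect2 at -0.32, Cyp2e1 at -0.29 and Slc1a2 at -0.14. Both zones lay slightly lower on the array labelled MAOO, and neither held a gene 1.5-fold apart. Most of these genes are bright, and of the 973 measured genes with a mean signal of 1000 or more, 592 were lower too. With the loess trend on signal removed the medians were -0.058 (periportal) and -0.073 (pericentral). Quantile normalization gave the same rounded values.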

How the data were processed

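Liver RNA was measured on 2 Affymetrix arrays, 1 per diet. The deposited values are linear intensities per probe set, made by the authors with MAS5 according to the submitters' processing notes; the sources used here give neither version nor settings. MAS5 merges the probes of a set into 1 signal and equalises the arrays' trimmed means, here 200.1 on both. Groups came from the sample titles and gene names from the platform annotation; manufacturer control sets entered only as Pcx probe sets. The signals were multiplied to bring each array's 2% trimmed mean to 500, signals under 100 were set to 100, and genes were measured from 200 upwards (floor of 40.0 and minimum of 80.0 on the deposited scale, on which signals are printed). A floor compresses ratios of dim genes. A gene was represented by its brightest probe set. With 1 array per diet no test was made; genes are described by size. Named were all members, up to 4 genes per list by absolute ratio, every list gene 1.5-fold apart, and Apoe; Slc37a4, Slc2a2, Gys2, Akt1, Akt2, Pdk4, Tat and Gcgr were added after their values were seen. The members and lists were chosen with earlier results of these data known. Of the list names, 2 were not in the gene table. Steps were tested on simulated data. Alternatives changed the scaling, floor, minimum and probe sets. Python 3.11.15, pandas 2.3.3, scipy 1.17.1 and statsmodels 0.14.6 were used.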

Additional observations from a re-analysis of the deposited data

How the results depend on the processing

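Of 315 values recomputed under 11 alternatives, 310 moved by less than 0.23 on the log2 scale, the SD between probe sets of 1 gene, or kept their count, and 5 moved further. No value that was at least 1.5-fold apart changed sign, though some smaller ones did. In all 11 alternatives 1 member was at least 1.5-fold lower and 0 were higher, and Igfbp1 ranged from -0.69 to -0.64. Igfbp1 is read by 1 bright probe set, so changes of floor, minimum or probe sets could not move it from -0.68. Only the scaling alternatives could, and the deposited scaling hardly could, as the trimmed means were already 200.1 on both arrays. Other bright genes with 1 probe set have the same limit, so part of the 310 was fixed in advance. Fbp1 ranged from -0.25 to -0.12, its highest value under quantile normalization. Ppargc1a turned to 0.088 with the mean of its measured probe sets and was not measured with a minimum of 400, and Foxo1 moved to 0.27 without sets ending in _x_at or _s_at. The member median ranged from -0.15 to -0.026, its highest with the mean of measured probe sets. G6pc lay between -0.57 and -0.52 and Igfbp2 between -0.76 and -0.72. Fgf21 lay at -0.18 with a floor of 200, and Sesn1 at 0.12 with the mean of its probe sets. List medians near 0 turned sign for other gluconeogenic genes (0.020 with the loess trend removed), fasting genes (0.014 at most) and other IGF axis genes (-0.021 with the mean of probe sets). The median of insulin-induced genes ranged from -0.27 to -0.035. No paired analysis was possible because there is a single array per diet, and for the same reason no array could be left out. Signal over background limits Insr, Irs2 and Ppargc1a most.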
